A study of Mus musculus with 18 samples.

Results

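The 10 genes described here carry out the display of peptides on major histocompatibility complex (MHC) molecules: B2m, H2-D1 and H2-K1 of class I, Tap1, Tap2 and Tapbp of peptide transport and loading, the transactivator Nlrc5, and Cd74, H2-Aa and H2-Ab1 of class II. They were chosen by gene symbol, and each of the 10 was found once among the 30905 genes of the count tables. Their counts of unique molecular identifiers (UMIs) were taken from single-nucleus libraries made from 9 Kun Ming mice, an outbred stock, aged 8 weeks. Each mouse gave a library of the hippocampus (Hip) and another of the prefrontal cortex (PFC), 18 in all. The 3 groups were 3 germ-free (GF) mice raised in isolators (mice 5, 6 and 7), 3 specific pathogen-free (SPF) mice raised with a microbiota (mice 30, 31 and 32) and 3 colonized germ-free (CGF) mice (mice 17, 18 and 19), which were GF until 4 weeks of age and then shared a cage with SPF mice for 4 weeks. GF mice were assigned by chance to stay GF or become CGF, whereas SPF mice were housed under other conditions, so that housing and microbiota cannot be told apart where SPF mice are compared. The comparisons ask in which cells of the brain these genes were expressed, and whether their level differed with the presence of a microbiota or with its late return.

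Class I molecules consist of a heavy chain, such as the products of H2-K1 and H2-D1, bound to beta-2-microglobulin, the product of B2m, and show peptides from the inside of the cell to CD8+ T cells. The peptides are pumped into the endoplasmic reticulum by the transporter made of Tap1 and Tap2 and loaded with the help of tapasin (Tapbp), and Nlrc5 raises the transcription of these genes together with factors induced by interferon. Class II molecules, here the chains H2-Aa and H2-Ab1 with the invariant chain Cd74, show peptides taken up from outside to CD4+ T cells and are made mainly by dendritic cells, B cells and macrophages. In the resting brain, class I is known to be higher in vessels than in neurons, and class II is known from macrophages at the borders of the brain rather than from microglia.

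Of the 10 genes, 7 lie in the MHC on chromosome 17, as placed on GRCm38 with the GENCODE vM21 annotation. H2-K1 (ENSMUSG00000061232) spans chr17:33996017-34000347 on the minus strand and H2-D1 (ENSMUSG00000073411) chr17:35262730-35267499 on the plus strand. Tapbp lies at chr17:33915899-33929292, Tap1 at chr17:34187553-34197225, Tap2 at chr17:34203527-34216321, H2-Ab1 at chr17:34257689-34269419 and H2-Aa at chr17:34282744-34287823. Outside the MHC, B2m (ENSMUSG00000060802) spans chr2:122147686-122153083 and Nlrc5 chr8:94434356-94527272, and Cd74 lies on another chromosome. B2m overlaps Patl2, Tap1 overlaps Psmb9, Tap2 overlaps Gm20496 and Gm15821 and Nlrc5 overlaps 9330175E14Rik, each on the opposite strand, while Tapbp overlaps Zbtb22 on its own strand and Gm19412 on the other. The study's library metrics list reads antisense to genes apart, and their share was lower in PFC libraries of SPF and CGF mice than in all others. The effect of this on the counts of overlapping genes was not tested.

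The RefSeq promoter table (GRCm38.p6) held entries for 6 of the 10 genes. Motifs known from class I promoters, 4 in number, were searched on both strands in the 250 bases before each start. They were the kappa B consensus of the NF-kB factors, CCAAT, the interferon response motif of GAAA repeated after a gap of 2 bases, and TGACGC, which is like a cyclic AMP response element. The stretches of the class I genes that the results turn on are shown with every match in capitals, since B2m differs from the heavy chains in exact matches of these motifs. For B2m and H2-K1 they are the 250 bases at chr2:122147437-122147686 (plus strand) and chr17:34000348-34000597 (minus strand, the first of 2 RefSeq starts), and for H2-D1 the 30 bases around its kappa B match at chr17:35262913-35262942 (plus strand).
B2m: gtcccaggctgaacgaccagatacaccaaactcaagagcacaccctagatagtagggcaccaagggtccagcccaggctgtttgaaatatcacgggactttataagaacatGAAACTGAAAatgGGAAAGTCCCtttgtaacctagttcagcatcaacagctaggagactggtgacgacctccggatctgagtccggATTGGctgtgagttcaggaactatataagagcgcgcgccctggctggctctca
H2-K1: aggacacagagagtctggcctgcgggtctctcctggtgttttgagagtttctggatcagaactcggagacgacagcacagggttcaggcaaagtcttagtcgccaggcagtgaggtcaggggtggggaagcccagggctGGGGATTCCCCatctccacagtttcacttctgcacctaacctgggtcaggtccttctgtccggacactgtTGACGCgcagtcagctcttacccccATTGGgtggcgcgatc
H2-D1: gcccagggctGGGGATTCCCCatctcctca
Matches of the kappa B consensus lay 111 to 101 bases upstream of the start in H2-K1 and 171 to 161 bases upstream in H2-D1, each made of a pair of overlapping matches with the same 11 letters, and 126 to 117 bases upstream on the reverse strand in B2m. This consensus was found in 2368 of 32536 distinct promoter windows of the same length (7.28%). The B2m window held the interferon response motif 139 to 130 bases upstream, which was found in 2.98% of promoters. No exact match lay in the windows of H2-K1 or H2-D1. Looser forms of this motif, which those windows could hold, were not searched. TGACGC, at 41 to 36 bases upstream in H2-K1, was found in 6.15% of promoters, and CCAAT, on the reverse strand as ATTGG in B2m and H2-K1, in 33.8%. The H2-D1 window also held TGACGC, 101 to 96 bases upstream, and CCAAT at 76 to 72 and 53 to 49. These matches describe letters, and no binding was measured.

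Barcodes with at least 200 genes and at most 10% mitochondrial UMIs were kept, which left 71398 nuclei of Hip and 66602 of PFC. A nucleus was given to a cell type by 3 or more distinct markers of that type's list with no close second list of another lineage. In Hip, 42643 nuclei (59.7%) and in PFC 41150 (61.8%) fell into 7 types: neurons, astrocytes, oligodendrocytes, oligodendrocyte precursor cells (OPC), microglia, endothelium and border macrophages. Each gate held its own list highest: microglia held 80.8 UMIs of the microglial list per 10000 UMIs, 27.2 of the astrocyte list and 1.96 of the border macrophage list, while border macrophages held 110.7 of their own list and 27.4 of the microglial list. There were 910 endothelial nuclei in Hip and 1144 in PFC, 1863 and 1596 microglial nuclei, and only 90 and 81 border macrophages, of which a library held 2 to 21. The 6 PFC libraries of SPF and CGF mice stood apart from the other 12, with 20336250 to 26949210 UMIs against 49067853 to 71463928, a median of 2353 to 3208 UMIs per nucleus against 4678 to 7579, and 1.21% to 2.86% mitochondrial UMIs against 0.0686% to 0.879%. In PFC these libraries cannot be told apart from the contrast of GF with the other groups, and within SPF and CGF mice they cannot be told apart from the region. Libraries shared 6 to 29 barcodes per pair, at most 0.366% of the smaller library. A level below is in UMIs per 1000000 UMIs of that type in that library (CPM), which is not per gene length, so that levels are compared between types and groups for a gene and not between genes.

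The 7 genes of the class I side had their highest median in endothelium in both regions, above that of neurons. Counts pooled over libraries gave another order for Nlrc5, whose median in border macrophages was 0. Pooled Nlrc5 had 28.67 CPM in border macrophages (6 UMIs) and 17.22 in endothelium of Hip, and 55.19 (7 UMIs) and 16.96 in PFC. Pooled Tap1 of PFC had 23.65 CPM in border macrophages (3 UMIs) and 18.88 in endothelium. Over the 9 Hip libraries, B2m had a median of 245 CPM in endothelium (132 to 1187), 106 in border macrophages (43.3 to 476), 56.7 in microglia (42.1 to 79.4) and 4.62 in neurons (2.73 to 6.74). Astrocytes (16.5), oligodendrocytes (13.02) and OPC (9.98) lay close together. The ranges of B2m in endothelium and microglia did not overlap, nor did those of microglia and astrocytes, whereas border macrophages overlapped both of the types beside them. The H2-K1 chain had 136.8 CPM in endothelium (94.5 to 946) against 7.11 in microglia and 0.632 in neurons, and H2-D1 had 288 (229 to 825) against 23.3 and 4.81. Of the chains of the peptide transporter, Tap1 had a median of 5.04 CPM in endothelium and 4.24 in microglia, with overlapping ranges, and Tap2 43.0 and 20.9. Tapbp had 79.6 CPM in endothelium, 30.7 in microglia and 6.32 in neurons, and Nlrc5 7.82, 4.24 and 0.839. In PFC the median of B2m was 240 CPM in endothelium, 89.3 in microglia, 64.0 in border macrophages and 8.10 in neurons, and endothelium again held the highest median of these 7 genes. The plot of levels by type shows this order for each gene.

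**Figure D1:**
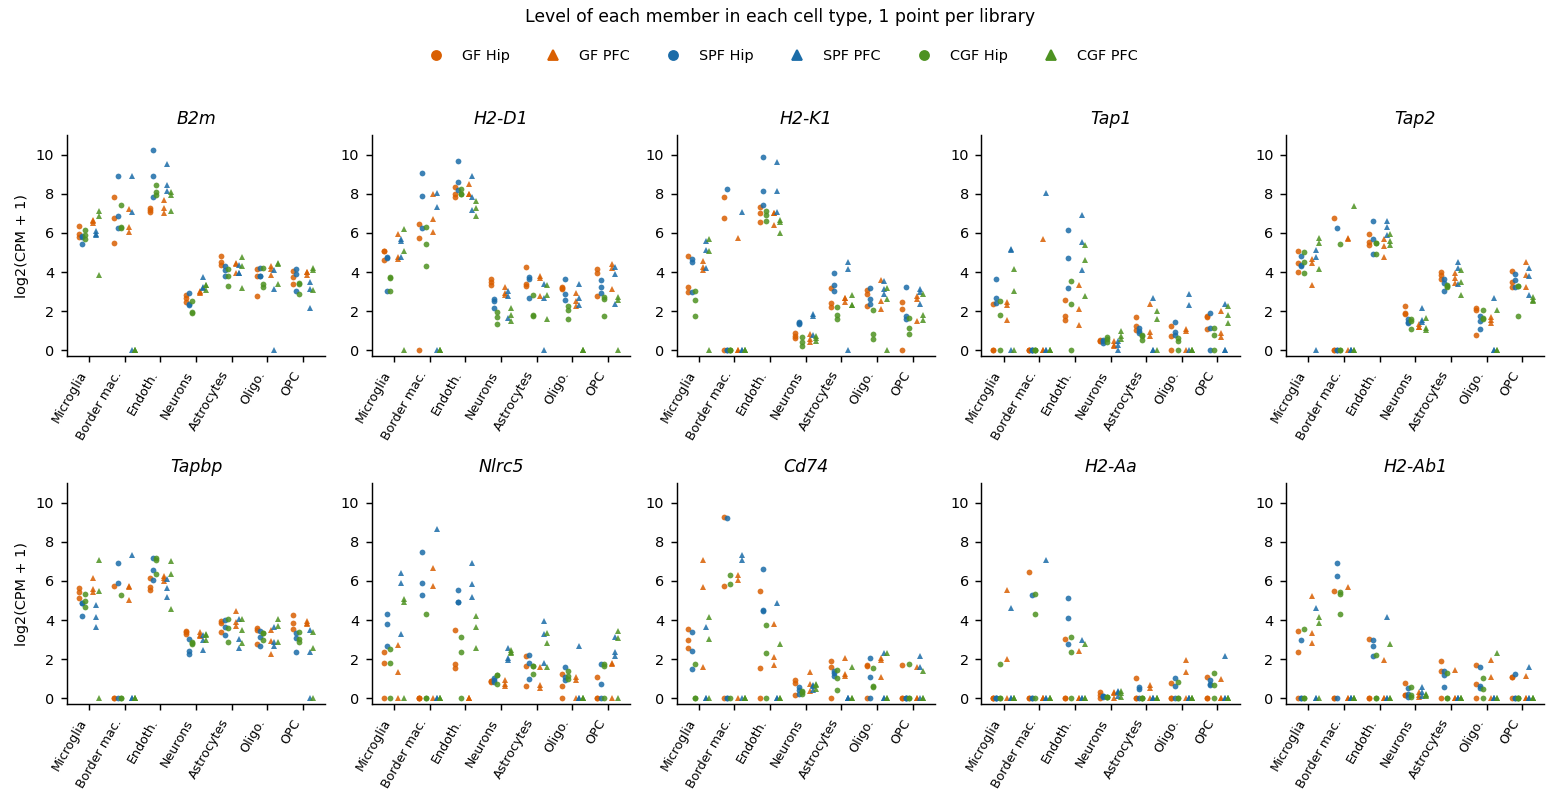
Level of each of the 10 genes in the 7 cell types, as log2(CPM + 1), with 1 point per library, coloured by group and with a marker for the region. For B2m, H2-K1 and H2-D1 the endothelial points lie above those of neurons and of the other glia, while Cd74, H2-Aa and H2-Ab1 lie near 0 in most libraries and rise in single libraries of border macrophages, endothelium and microglia.

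With the library as a term in edgeR's quasi-likelihood test, all 10 genes were higher in endothelium than in neurons in Hip, where 36.7% of all genes tested were called in that direction. Endothelium was also higher for 10 of 10 genes against oligodendrocytes (30.1% of all genes) and OPC (33%), and for 9 of 10 against astrocytes (29%), where H2-Ab1 was not called. The differences from neurons were largest for H2-K1, at a log2 of 7.33 ± 0.19 (SE), followed by H2-Aa at 5.81, B2m at 5.65 ± 0.21, H2-D1 at 5.56 ± 0.17 and Cd74 at 5.24. Those of Tap1 (4.32), Tap2 (3.995), Nlrc5 (3.39), Tapbp (3.27) and H2-Ab1 (2.93) were smaller. Some of these rest on few UMIs and mainly on SPF mice. In Hip endothelium H2-Aa had 36 UMIs, with 3 of 9 libraries at 0. SPF mice held 73 of the 99 endothelial UMIs of Cd74, 52 of 60 of Tap1 and 61 of 69 of Nlrc5. Against border macrophages, 4 of 10 genes were higher in endothelium (B2m, H2-K1, H2-D1 and Tapbp; 14% of all genes), and the other 6 were not called, with few border macrophage nuclei behind that comparison. In PFC, where H2-Aa was too low to test, endothelium was higher for 9 of 9 genes against neurons (34.2%) and astrocytes (24.2%), 8 against OPC (30.2%), 7 against oligodendrocytes (23.7%) and 3 against border macrophages (15.8%).

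Microglia lay between endothelium and the neural types. In Hip, 9 of the 10 genes were lower in microglia than in endothelium (24.2% of all genes), with a log2 of -4.29 for H2-D1, -4.23 for H2-K1, -2.59 for B2m and -1.47 for Nlrc5. H2-Aa, 1 of the 9, held 1 UMI in Hip microglia. Against neurons, 9 of 10 were higher in microglia (34.6%), with 3.05 for B2m, as were 9 of 9 in PFC (30.8%). In PFC, 6 of 9 genes were lower in microglia than in endothelium (20.5%) and 2 were higher (16.2%), namely Cd74 at 2.32 ± 0.54 (edgeR adjusted p = 0.000251) and H2-Ab1 at 2.27 ± 0.68 (adjusted p = 0.00486). Those 2 class II differences rest on few nuclei of GF mice, as given with the class II genes. Against border macrophages, H2-Aa was lower in Hip microglia (1.75% of all genes) and the other 9 genes were not called. That call rests on 5 H2-Aa UMIs of border macrophages, with 5 of their 9 libraries at 0, and 1 of microglia. In PFC none of 9 was called by edgeR (9.2% of all genes in either direction) or by DESeq2, and 0 had an unadjusted p under 0.05 by edgeR.

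Between the groups, endothelial B2m was lower in GF mice than in SPF mice in both regions, and endothelial H2-K1 was lower in PFC. In Hip, B2m had 141, 154 and 132 CPM in GF mice 5, 6 and 7, 484, 1187 and 226 in SPF mice 30, 31 and 32, and 344, 268 and 245 in CGF mice 17, 18 and 19. GF mice lay below every SPF and CGF mouse, while CGF mice overlapped with SPF mice, of which mouse 31 was far above the rest. The difference between GF and SPF mice was a log2 of -1.99 ± 0.44 (edgeR adjusted p = 0.0217), with 7.25% of 8625 genes called in either direction and 1.29% lower. Without SPF mouse 31 it was -1.21 (adjusted p = 0.0235). The call was lost without GF mouse 5 (adjusted p = 0.0626), GF mouse 6 (0.0722), GF mouse 7 (0.0955) or SPF mouse 30 (0.0574) and with only the 6 GF and SPF mice (0.0536), with differences of -2.14 to -1.96.

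In the PFC, endothelial B2m had 206, 154 and 130 CPM in GF mice, 346, 731 and 283 in SPF mice and 270, 139 and 240 in CGF mice. The GF values again lay below those of SPF mice, and so did the CGF values, which overlapped with GF. GF and SPF mice differed by -1.38 ± 0.30 (edgeR adjusted p = 0.00115), in a comparison in which 35.1% of 5251 genes were called and 15.2% were lower. This call was kept under all 17 alternatives, with differences of -1.67 to -0.94.

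H2-K1, a class I heavy chain, was called between GF and SPF mice in PFC and not in Hip. In Hip endothelium it had 156, 130 and 94.5 CPM in GF mice, 285, 946 and 169 in SPF mice and 137, 96.6 and 119 in CGF mice, so that every GF and CGF mouse lay below every SPF mouse. The difference of GF from SPF mice, -1.74 ± 0.49, did not pass the threshold of edgeR (adjusted p = 0.0501). In PFC it had 128, 128 and 84.7 CPM in GF mice, 284, 780 and 133 in SPF mice and 93.8, 63.6 and 99.9 in CGF mice, again without overlap. Here GF mice were lower by -1.69 ± 0.40 (adjusted p = 0.00248), which was -0.84 (adjusted p = 0.0316) without SPF mouse 31.

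H2-D1, the other heavy chain, was not called between GF and SPF mice in endothelium of either region. In Hip endothelium it had 257, 320 and 229 CPM in GF mice, 387, 825 and 288 in SPF mice and 250, 304 and 253 in CGF mice. In PFC endothelium it had 362, 252 and 252 in GF mice, 145, 485 and 224 in SPF mice and 194, 116 and 155 in CGF mice. GF and SPF mice overlapped in both regions, with differences of -0.74 ± 0.32 in Hip (95% interval -1.36 to -0.12, adjusted p = 0.18) and 0.12 ± 0.30 in PFC (adjusted p = 0.78), neither past the threshold of edgeR. Within PFC, H2-D1 was higher in GF than in CGF mice, by 0.90 ± 0.32 (adjusted p = 0.0347, 33.7% of genes called), a call that was lost in 6 of 17 alternatives. These were DESeq2 (0.06), thinning (0.0616) and the fits without CGF mouse 17 (0.051), 18 (0.136) or 19 (0.105) or GF mouse 5 (0.123).

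**Figure D2:**
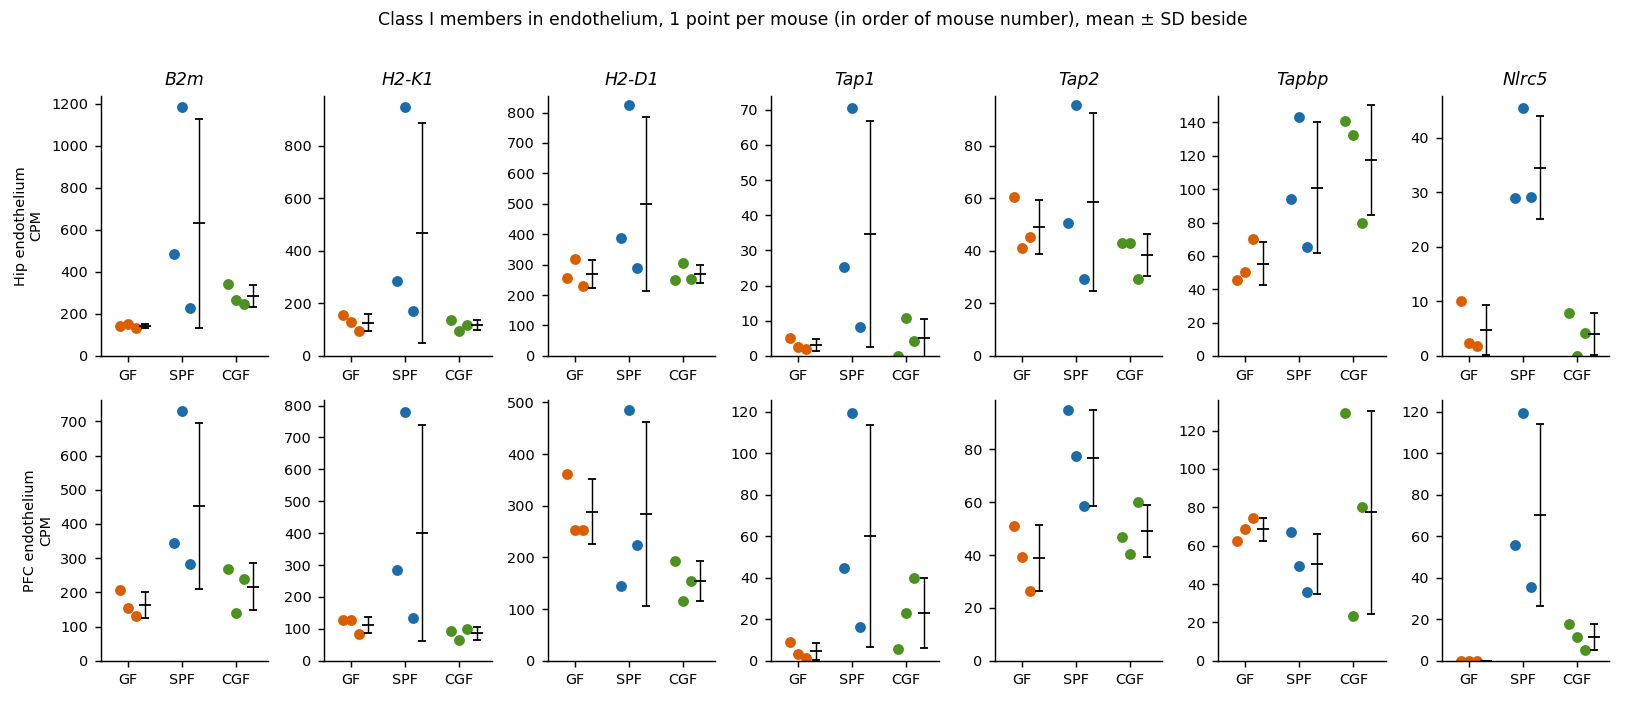
Endothelial levels of the class I genes in CPM, 1 point per mouse in order of mouse number within each group, with the mean ± SD (n = 3) beside them, for Hip (upper) and PFC (lower). B2m and H2-K1 of the 3 GF mice lie below those of the 3 SPF mice in both regions, and SPF mouse 31 is the highest of all 9 mice.

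Nlrc5, which drives class I transcription, was sparse in endothelium, and its values are given as a description. In Hip endothelium it had 10.1, 2.41 and 1.89 CPM in GF mice, 28.9, 45.5 and 29.2 in SPF mice and 7.82, 0 and 4.19 in CGF mice, without overlap between SPF and the others. The difference between GF and SPF mice was -3.02 ± 0.64 (edgeR adjusted p = 0.0176), and as summed counts 61 UMIs in SPF mice stood against 4 in GF mice, a ratio of 9.42 (95% counting interval 3.50 to 35.7) that was 15.6 without GF mouse 5. With 4 UMIs also in CGF mice, Nlrc5 passed the low-count filter through SPF mice, so its call supports nothing. The call was lost without GF mouse 6 (-2.79, adjusted p = 0.0858), GF mouse 7 (-2.59, 0.109) or SPF mouse 30 (-3.11, 0.063). In PFC endothelium Nlrc5 was at 0 in all 3 GF mice, at 55.8, 119.5 and 35.7 CPM in SPF mice and at 17.6, 11.6 and 4.99 in CGF mice. It did not pass the low-count filter there. With 38 UMIs in SPF mice against 0 of 1421772 endothelial UMIs in GF mice, the level in SPF mice was at least 28.6-fold higher, taking a floor of 3 counts over the group (at least 14.8-fold without GF mouse 7), and 5.47-fold higher than in CGF mice (2.30 to 15.8). The 6 PFC libraries of SPF and CGF mice also held more Nlrc5 than the others in neurons (2.90 to 4.99 CPM against 0.564 to 1.33), and the part of the library set in the endothelial values was not tested. These intervals cover counting error only and not the spread between mice.

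Tap1, the first chain of the peptide transporter, was sparse in endothelium. In Hip the 3 GF mice held 1 UMI each (5.04, 2.41 and 1.89 CPM), the SPF mice 14, 31 and 7 UMIs (25.3, 70.5 and 8.17 CPM), and CGF mice had 0, 10.7 and 4.19 CPM. In PFC Tap1 had 9.27, 3.27 and 1.46 CPM in GF mice, 44.6, 119.5 and 16.2 in SPF mice and 5.86, 23.1 and 40.0 in CGF mice. GF and SPF mice did not overlap in either region, and the ratio of their summed counts was 10.7 in Hip (3.47 to 53.6) and 11.3 in PFC (4.63 to 33.2), while SPF over CGF was 5.69 and 1.99. Without SPF mouse 31, which held 31 of the 52 UMIs of SPF mice in Hip and 17 of 30 in PFC, the ratios over GF mice were 5.67 and 6.32. Leaving out another mouse moved them to 17.3 in Hip (SPF mouse 32) and to 23.6, 7.02 or 18.4 in PFC (GF mouse 5, GF mouse 7 or SPF mouse 32). Tap1 did not pass the filter in these fits, and with the filter off edgeR gave -3.41 in Hip (adjusted p = 0.000194) and -3.42 in PFC (4.33e-07). GF mice held only 3 UMIs in Hip and 6 in PFC, so these values support nothing.

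Tap2, the second chain, had 60.5, 40.9 and 45.4 CPM in GF mice, 50.6, 95.5 and 29.2 in SPF mice and 43.0, 42.9 and 29.3 in CGF mice in Hip endothelium, and the groups overlapped (-0.10 ± 0.38, adjusted p = 0.916). In PFC, GF mice (51.0, 39.3 and 26.3 CPM) lay below SPF mice (94.8, 77.3 and 58.5), by -0.94 ± 0.33 (edgeR adjusted p = 0.0335). This call was lost with DESeq2 (0.11) and with the endothelial sums of the libraries thinned to equal totals (-0.52, 0.403). It was also lost without GF mouse 6 (0.0633), GF mouse 7 (-0.64, 0.205), SPF mouse 30 (0.122) or SPF mouse 31 (0.0535). Tapbp, which holds the heavy chain at the transporter, had 45.3, 50.5 and 69.9 CPM in GF and 93.9, 143 and 65.3 in SPF mice in Hip, which overlapped (adjusted p = 0.241), and differed by 0.56 in PFC (adjusted p = 0.286).

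Of CGF mice, which had a microbiota for 4 weeks, no member was called by edgeR against SPF mice in endothelium of either region. In Hip, where 0.0116% of all genes were called in that contrast, H2-K1 differed by -1.95 ± 0.49 (unadjusted p = 0.00172, edgeR adjusted p = 0.991) and Nlrc5 by -3.01 ± 0.64 (0.000417, adjusted 0.5), and 4 of 6 members tested had an unadjusted p under 0.05. Nlrc5, 1 of these 4, passed the low-count filter through SPF mice. In PFC, where 0% of genes were called, H2-K1 differed by -2.05 ± 0.47 (unadjusted p = 0.000256, edgeR adjusted p = 0.198), and 3 of 5 members had an unadjusted p under 0.05. Both counts at an unadjusted p lack the share of all genes at that level and support nothing. DESeq2 called 0 members in Hip and 1 in PFC. The difference of B2m between GF and CGF mice was -0.86 ± 0.45 in Hip (edgeR adjusted p = 0.29, 3.56% of genes called), with each CGF mouse above each GF mouse.

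**Figure D3:**
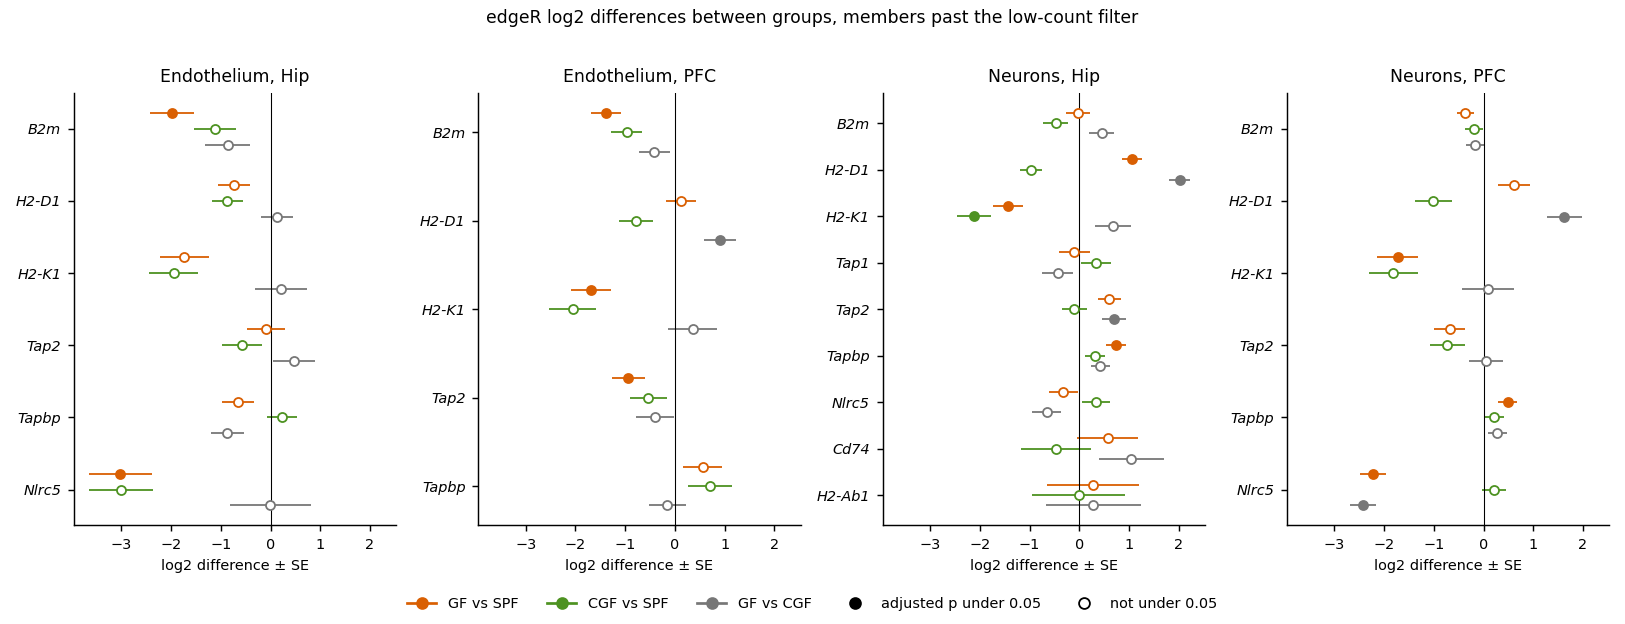
Log2 differences between groups from edgeR (± SE) for the genes past the low-count filter in each panel's cell type and region, with filled points where the adjusted p was under 0.05. In endothelium B2m, H2-K1 and Nlrc5 lie to the left of 0 for GF vs SPF, and in neurons H2-K1 lies to the left while H2-D1 lies to the right of 0 in Hip.

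Among the class I-like chains outside the 10 genes, 6 of 12 were tested in Hip endothelium, and 2, H2-Q4 (edgeR adjusted p = 0.00511) and H2-Q6 (adjusted p = 0.0114), were lower in GF than in SPF mice, beside 1.29% of all genes. Both passed the low-count filter through SPF mice, so this count supports nothing. Summed counts of 144 UMIs in SPF against 3 in GF mice for H2-Q4 gave a ratio of 29.7 (95% counting interval 9.95 to 145.5), and 84 against 1 for H2-Q6 gave 51.9 (9.06 to 2074). Without GF mouse 7 the first was 47.8, and the second was 27.9 without GF mouse 7, 30.0 without SPF mouse 31 and at least 11.01 without GF mouse 6. Both chains of the Q region had 0 to 3.78 CPM in GF mice of Hip, whereas H2-Q4 had 75.9, 147.8 and 43.2 and H2-Q6 27.1, 106.8 and 25.7 in SPF mice. In CGF mice of Hip H2-Q4 had 7.82, 0 and 8.38 CPM, and in PFC, where neither passed the filter, H2-Q6 had 139, 281 and 42.2 CPM in SPF mice and was at 0 in all GF mice, at least 58.7-fold higher in SPF mice. Without single mice this bound was 30.4 (GF mouse 7), 37.0 (SPF mouse 31) or 95.8 (SPF mouse 32). Of the 90-base windows of their transcripts, 75 of 1704 of H2-Q4 (4.40%) and 264 of 1996 of H2-Q6 (13.2%) were shared with other genes, so counts could move between class I copies. None of the 12 passed the filter in microglia.

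In the lists of class II processing and peptide supply, the genes called in endothelium were higher in GF mice. Of the class II processing list, 2 of 5 tested genes were higher in GF than in SPF mice in Hip (7.25% of all genes called), the cathepsin Ctsl (1.28 ± 0.24, edgeR adjusted p = 0.00932) and the endopeptidase Lgmn (1.17, 0.0336), and 2 of 3 in PFC (35.1%), Ctsl (1.74, 0.000336) and Ctsb (0.90, 0.03). Ctsl had 272, 233 and 204 CPM in GF mice of Hip against 112, 130 and 79.3 in SPF and 110, 147 and 92.1 in CGF mice. Of the peptide supply list, 0 of 7 were called in Hip by edgeR, and in PFC 2 of 6 were higher in GF than in SPF mice, the chaperones Calr (0.77, 0.0122) and Canx (0.88, 0.00463), a share near the 35.1% of all genes called. Psme1 (1.26, 0.0142), Calr and Canx were higher than in CGF mice, 3 of 6 beside 33.7%. None of the 7 class II chains and editors found in the files passed the filter in endothelium, and no listed gene was called by edgeR between CGF and SPF mice in endothelium or microglia.

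Other measures moved with the groups in endothelium, where 2 of 16 marker lists in Hip and 7 in PFC did not overlap between GF and SPF mice. The endothelial sums held 20.9 to 27.3 UMIs of the mural list per 10000 UMIs in GF mice of Hip, against 29.4 to 55.0 (SPF) and 27.1 to 46.2 (CGF), with all 8 markers present. In PFC the order was the opposite, at 20.9 to 23.6 in GF mice against 8.44 to 10.8 (SPF) and 7.46 to 9.04 (CGF). In PFC 6 other lists were also higher in GF than in SPF mice, among them oligodendrocytes (4.26 to 4.57 against 1.95 to 3.54), microglia (2.11 to 3.11 against 1.48 to 1.88) and B cells (0.613 to 0.721 against 0 to 0.195). In Hip the list of monocytes and neutrophils had 0.0963 to 1.80 in GF against 0.0117 to 0.0682 in SPF mice. The T cell list reached at most 0.173 per 10000 UMIs in any library, and Cd3d, which defines T cells, was at 0 in all 6 combinations of group and region. The part of these cells in the differences was not tested. In SPF mouse 31 of Hip, 1 endothelial nucleus held 65 UMIs of B2m, and over the libraries the tenth of endothelial nuclei with most B2m held 42.7% to 75.8% of the B2m UMIs.

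As a share of endothelial nuclei with a B2m UMI after thinning every nucleus to 500 UMIs, GF mice of Hip had 7.06% (23 of 326, exact 95% interval 4.53% to 10.4%), SPF mice 13.1% (43 of 327, 9.68% to 17.3%) and CGF mice 14.0% (36 of 257, 10.0% to 18.9%). By mouse the shares were 6.82% to 7.14%, 6.40% to 25% and 11.8% to 16.7%, so that GF and SPF mice overlapped. The intervals pool the nuclei of 3 mice and leave out the spread between mice. Without thinning the pooled shares were 30.4%, 52.6% and 46.3%. In PFC the thinned shares were 8.58%, 10.1% and 7.74%, with 6.54% to 12.3%, 7.78% to 15.9% and 5.10% to 9.38% by mouse, which overlapped, and the unthinned ones 30.7%, 27.6% and 20.1% in libraries of unequal depth. Neurons, in which class I is known to be low, had 0.226% to 0.449% after thinning, with a median of 4185 to 9622 UMIs per nucleus against 1000 to 3157 in endothelium.

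In neuronal sums of Hip, where the class I genes were lower than in endothelium, H2-K1 and H2-D1 moved in opposite directions between GF and SPF mice. H2-K1 in Hip neurons had 0.570, 0.827 and 0.632 CPM in GF mice, 1.57, 1.73 and 1.61 in SPF mice and 0.332, 0.184 and 0.613 in CGF mice, so that SPF mice lay above all others. H2-D1 had 9.23, 11.3 and 10.3 CPM in GF mice, 3.45, 4.81 and 5.10 in SPF mice and 2.22, 1.58 and 2.88 in CGF mice, without overlap between any pair of groups. GF mice were lower than SPF mice in H2-K1 by -1.43 ± 0.31 (edgeR adjusted p = 0.00366) and higher in H2-D1 by 1.06 ± 0.20 (0.00171), and in Tapbp by 0.74 ± 0.20 (0.0119). These 3 of 9 members tested stand beside 46.1% of 17770 genes called in that contrast, so that the count itself is not a result about the members. The sums also differed in 8 of 16 marker lists, with 15.2 to 17.2 UMIs of the interneuron list per 10000 in GF mice, 20.8 to 25.1 (SPF) and 24.7 to 26.3 (CGF), and 0.728 to 0.847 of the microglial list in GF against 0.584 to 0.702 in SPF mice. The part of these cells, and of free RNA from other types, in the neuronal levels was not tested.

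In Hip neurons of CGF mice both heavy chains lay below the levels of every SPF mouse. H2-D1 was higher in GF than in CGF mice by 2.02 ± 0.21 in Hip (edgeR adjusted p = 7.46e-05, 46.4% of genes called) and by 1.62 ± 0.35 in PFC (0.00146, 61.5%), both kept under every alternative run. H2-K1 was lower in CGF than in SPF mice of Hip by -2.11 ± 0.34 (0.0329, 0.551% of genes called), the only member called by edgeR in this contrast in the 6 types fitted in either region, and the call was lost in 11 of 17 alternatives. In PFC neurons 0.294% of genes and no member were called in this contrast by edgeR. Of 6 members, 2 had an unadjusted p under 0.05, and DESeq2 called 0. Tap2 was higher in GF than in CGF mice of Hip by 0.70 (0.0338), which was lost in 7 of 17 alternatives, among them those without CGF mouse 17 or 18 and GF mouse 6 or 7. B2m in Hip neurons had 4.62, 6.10 and 5.42 CPM in GF mice, 3.93, 4.08 and 6.74 in SPF mice and 2.73, 2.90 and 4.72 in CGF mice, with overlap.

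In PFC neurons H2-K1 had 0.768, 0.468 and 0.355 CPM in GF mice, 2.36, 2.68 and 0.743 in SPF mice and 0.672, 0.542 and 0.397 in CGF mice. SPF mouse 32 lay within the range of GF mice, and GF mice were lower than SPF mice by -1.72 ± 0.41 (edgeR adjusted p = 0.00297), with 3 of 6 members and 63% of 16654 genes called. In these sums 8 of 16 marker lists did not overlap between GF and SPF mice, among them excitatory neurons (11.6 to 12.0 UMIs per 10000 against 14.7 to 15.5), astrocytes (1.55 to 1.70 against 2.63 to 3.00) and T cells (0.0575 to 0.0896 against 0.193 to 0.238), and their part was not tested. H2-D1 had 8.40, 6.66 and 6.12 CPM in GF mice and 5.81, 7.29 and 2.16 in SPF mice there, which overlapped (0.61, adjusted p = 0.114). Tapbp differed by 0.48 (0.0465), a call lost in 13 of 18 alternatives. When each nucleus was capped at 1000 UMIs, an alternative chosen after seeing the data, the Hip difference of H2-D1 was 0.84 (adjusted p = 0.0757) and that of Tapbp 0.51 (0.241), while H2-D1 between GF and CGF mice stayed past the threshold (1.68, 0.00512) and H2-K1 in Hip did not pass the low-count filter.

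Nlrc5 in neurons was higher in the 6 PFC libraries of SPF and CGF mice than in all others. It had 4.99, 3.18 and 2.90 CPM in SPF mice and 4.11, 4.60 and 4.06 in CGF mice of PFC, and 0.564 to 1.33 CPM in the other 12 libraries, GF mice of PFC included. The PFC difference of GF mice from SPF mice was -2.22 ± 0.26 (edgeR adjusted p = 1.07e-05) and from CGF mice -2.43 ± 0.26 (5.02e-06), and both stayed past the threshold under every alternative run. In Hip, where depth was closer between groups, Nlrc5 had 0.839, 0.827 and 0.765 CPM in GF and 0.922, 0.770 and 1.05 in SPF mice. The 6 libraries are those with low depth and high mitochondrial shares, and group and library set cannot be told apart.

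The balance of the 2 heavy chains, the share of H2-D1 among the UMIs of H2-D1 and H2-K1, can be read within a library and does not depend on its depth. In Hip neurons H2-D1 made up 93.9% in GF mice (exact 95% interval 92.2% to 95.3%), 73.1% in SPF mice (69.0% to 76.9%) and 85.9% in CGF mice (80.1% to 90.5%). The libraries ranged from 93.2% to 94.2%, 68.7% to 76.0% and 82.4% to 89.6%, without overlap. In PFC neurons the shares were 93.1% in GF mice, 72.7% in SPF mice and 82.1% in CGF mice, whose libraries overlapped with SPF mice. The same order of GF above SPF mice held in endothelium, with 69.3% in GF mice, 53.4% in SPF mice and 69.4% in CGF mice of Hip and 72.8%, 44.7% and 64.1% in PFC, although the libraries of GF and SPF mice overlapped in Hip (62.2% to 71.1% and 46.6% to 63.01%). The pooled share was also higher in GF than in SPF mice in microglia (67.9% and 50.9% in Hip, 65.6% and 55.6% in PFC), astrocytes (68.8% and 49.6%, 66.2% and 30.4%) and OPC (82.5% and 68.6%, 78.3% and 65%), on few UMIs. Libraries of GF and SPF mice overlapped in microglia of both regions, in astrocytes of PFC and in OPC of Hip. They did not overlap in astrocytes of Hip or OPC of PFC. In oligodendrocytes it was 57.6% (exact 95% interval 44.8% to 69.7%) in GF and 59.1% (48.5% to 69.2%) in SPF mice of Hip. In PFC it was 42.1% (26.3% to 59.2%) and 45.5% (16.8% to 76.6%). Oligodendrocyte libraries of GF and SPF mice overlapped in Hip (51.9% to 66.7% and 44% to 68.8%) and in PFC (30% to 66.7% and 33.3% to 60%). These chains are polymorphic and the mice outbred, and whether reads of each mouse's alleles mapped equally well to the reference was not tested. Of the 90-base windows of the transcripts, 2 of 1530 of H2-K1 (0.131%) and 110 of 2013 of H2-D1 (5.46%) were shared with other genes, and none in the last 600 bases.

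**Figure D4:**
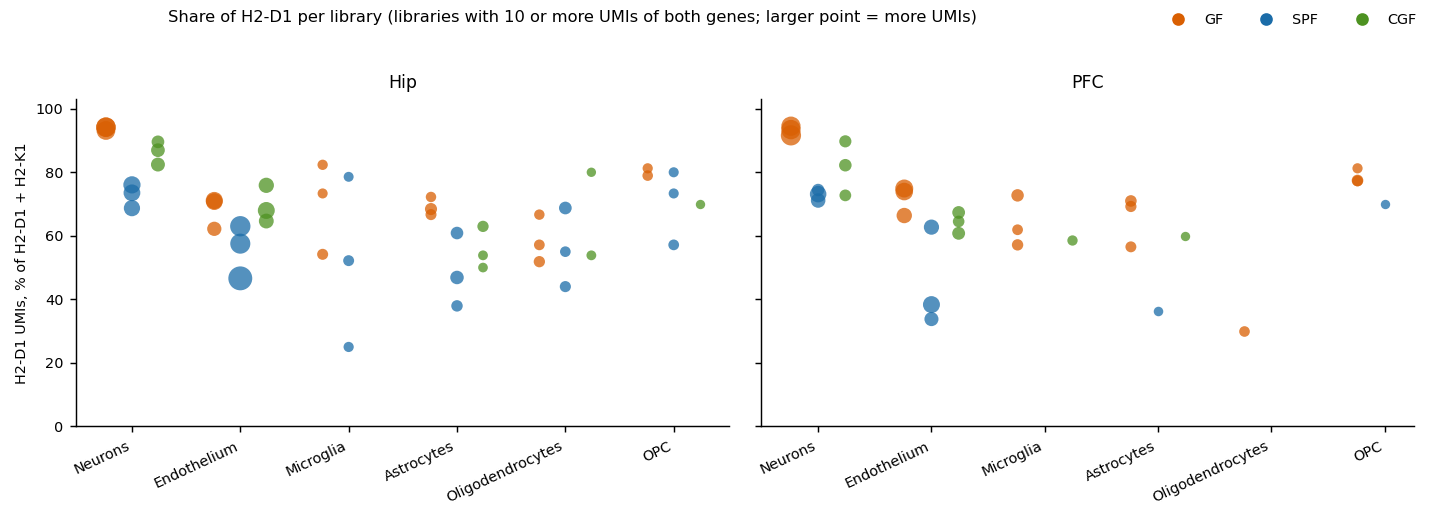
Share of H2-D1 among the UMIs of H2-D1 and H2-K1 in percent, 1 point per library with at least 10 such UMIs, by cell type and group, for Hip and PFC, with larger points for more UMIs. In neurons the GF points lie at 91.6% to 94.5% and the SPF points at 68.7% to 76.0%, with CGF points between them in Hip.

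In the other glia, the members called were higher in GF than in CGF mice of Hip and none was called between GF and SPF mice by edgeR, where 31% of genes were called in astrocytes, 32.3% in oligodendrocytes and 23.3% in OPC. In that contrast 1 of 5 members in astrocytes (H2-K1, -0.92, lower in GF mice), 0 of 4 in oligodendrocytes and 1 of 4 in OPC (Tapbp, 0.95) had an unadjusted p under 0.05. DESeq2 called 0 there. Between CGF and SPF mice of Hip, H2-K1 differed by -1.86 in astrocytes and -1.91 in oligodendrocytes, and H2-D1 by -1.38 and -1.34. None of these 4 passed the threshold (edgeR adjusted p = 0.133 to 0.304). Astrocytes had B2m at 19.8, 27.5 and 21.6 CPM in GF mice, 12.9, 16.4 and 18.9 in SPF mice and 16.5, 8.72 and 12.96 in CGF mice, and GF mice were higher than CGF mice by 0.83 ± 0.25 (edgeR adjusted p = 0.0177, 33.8% of genes called). Astrocytic H2-D1 had 9.54, 17.9 and 8.63 CPM in GF mice, 5.48, 12.6 and 11.3 in SPF mice and 2.54, 2.35 and 6.12 in CGF mice, with a difference of GF from CGF mice of 1.64 ± 0.44 (0.0104). For both, GF mice lay above CGF mice, and for H2-D1 they overlapped with SPF mice. The call of B2m was lost after thinning (0.11) and without CGF mouse 18 (0.079) or GF mouse 6 (0.0824), and that of H2-D1 after thinning (0.0534) and without GF mouse 6 (0.0726).

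Oligodendrocytes had H2-K1 at 3.86, 7.36 and 6.30 CPM in GF mice, 4.07, 7.95 and 5.18 in SPF mice and 0.498, 0.785 and 3.21 in CGF mice, and CGF mice lay below all others. GF mice were higher than CGF mice by 2.00 ± 0.58 in H2-K1 (edgeR adjusted p = 0.0135, 35.3% of genes called) and by 1.41 ± 0.42 in H2-D1 (0.0157). Without CGF mouse 17 the adjusted p was 0.0565 and 0.0613, and for H2-K1 it was 0.0688 without CGF mouse 18 and 0.0722 without GF mouse 6. In OPC, H2-D1 had 5.94, 14.6 and 16.8 CPM in GF and 5.50, 5.10 and 2.35 in CGF mice, a difference of 1.41 ± 0.47 (0.0376, 26.9% of genes called) that was lost in 8 of 15 alternatives. Over the 6 types fitted, 7 of 32 member tests were called higher in GF than in CGF mice of Hip, beside 30.5% of 70741 tests over all genes in either direction, and 5 of 32 between GF and SPF mice, beside 28.7%.

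Microglia, the brain's resident macrophages, showed no member called between groups in either region by edgeR or DESeq2. In Hip 4 members passed the filter, and 12.6% of 8361 genes were called between GF and SPF mice, 16.9% between GF and CGF and 0.0239% between CGF and SPF. B2m had 53.4, 79.4 and 61.5 CPM in GF mice, 53.9, 56.7 and 42.1 in SPF mice and 59.1, 71.1 and 51.3 in CGF mice, and GF differed from SPF mice by 0.35 ± 0.25 (95% interval -0.13 to 0.84, edgeR adjusted p = 0.374). The interval reaches from a small fall to a rise of 0.84. Whether the change in microglia differed from that in endothelium was not tested. In PFC, where 33.8% of genes were called between GF and SPF mice, 29.3% between GF and CGF and 0% between CGF and SPF, only B2m could be tested. It had 101, 97.4 and 89.3 CPM in GF mice, 67.9, 58.6 and 61.4 in SPF mice and 138, 13.3 and 116 in CGF mice. GF mice lay above SPF mice without overlap, but the difference of 0.54 ± 0.43 did not pass the threshold (edgeR adjusted p = 0.359). At an unadjusted p under 0.05, 1 member was found in Hip between GF and SPF mice (Tapbp, 0.75, adjusted p = 0.13), 1 between GF and CGF mice (H2-D1, 1.40, 0.0625) and 0 between CGF and SPF mice.

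Of the listed genes around them, microglia of GF mice were higher than those of SPF mice in Calr (0.72, edgeR adjusted p = 0.0176) and Ctsl (0.81, 0.0374) in Hip, 1 of 5 tested in each list. In PFC they were higher in Canx (0.76, 0.0357), 1 of 3 tested, and in Ctsl (3.00, 0.00046), Ctsb (1.55, 0.000772) and Lgmn (0.60, 0.0316), 3 of 4 tested. These counts stand beside 12.6% of all genes called in Hip and 33.8% in PFC. Against CGF mice, Calr (0.71) and Pdia3 (1.09), 2 of 5 tested in the peptide supply list, and Ctsl (1.07), 1 of 5 in the processing list, were higher in Hip, beside 16.9% of all genes. In PFC these were Canx (0.74), 1 of 3, and Ctsb (1.03), 1 of 4, beside 29.3%. In Hip microglia the astrocyte list had 19.1 to 23.3 UMIs per 10000 in GF against 29.0 to 39.1 in SPF mice, the oligodendrocyte list 3.08 to 4.34 against 7.09 to 10.2, and the microglial list 78.5 to 87.8 against 62.1 to 75.2, without overlap. Their part in these differences was not tested. No gene of the peptide supply or processing lists was called lower in GF microglia by edgeR, and no class II chain or editor passed the filter there.

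Class II genes were rare and concentrated in few nuclei. Cd74, H2-Aa and H2-Ab1 gave 1691 UMIs in 1034 of 138000 nuclei (0.749%), and the 31 nuclei with 5 or more held 570 of these UMIs (33.7%). Over all libraries, the 3 genes together had 155 CPM in border macrophages, with UMIs in 19 of 171 nuclei (11.1%), 32.8 in microglia (54 of 3459 nuclei, 1.56%) and 26.5 in endothelium (45 of 2054, 2.19%). The levels were 2.99 CPM in oligodendrocytes, 2.35 in astrocytes, 1.52 in OPC and 0.882 in neurons, where 0.629% of nuclei held a UMI. In microglia 4 nuclei held 70.9% of the class II UMIs, and in endothelium 12 nuclei held 73.7%.

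Those 4 microglial nuclei were all from GF mice of PFC, and 8 of the 12 endothelial nuclei from SPF mice of Hip. Accordingly Cd74, the invariant chain, had 134, 2.03 and 51.5 CPM in PFC microglia of GF mice, 0, 11.7 and 0 in SPF mice and 7.28, 0 and 16.5 in CGF mice, and 2 nuclei held 78 of the 105 Cd74 UMIs of GF mice (74.3%). In Hip microglia Cd74 lay between 0 and 10.6 CPM in all 9 mice. In Hip endothelium Cd74 had 0, 43.3 and 1.89 CPM in GF mice, 21.7, 97.7 and 21.0 in SPF mice and 3.91, 0 and 12.6 in CGF mice, where GF mouse 6 lay within the range of SPF mice. In border macrophages of Hip it had 0, 53.1 and 606 CPM in GF mice, 595, 0 and 0 in SPF mice and 56.6, 0 and 77.9 in CGF mice, which no order of groups describes. Border macrophages were not fitted by group, and the class II genes were not tested by group in microglia or endothelium, since they were too low.

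**Figure D5:**
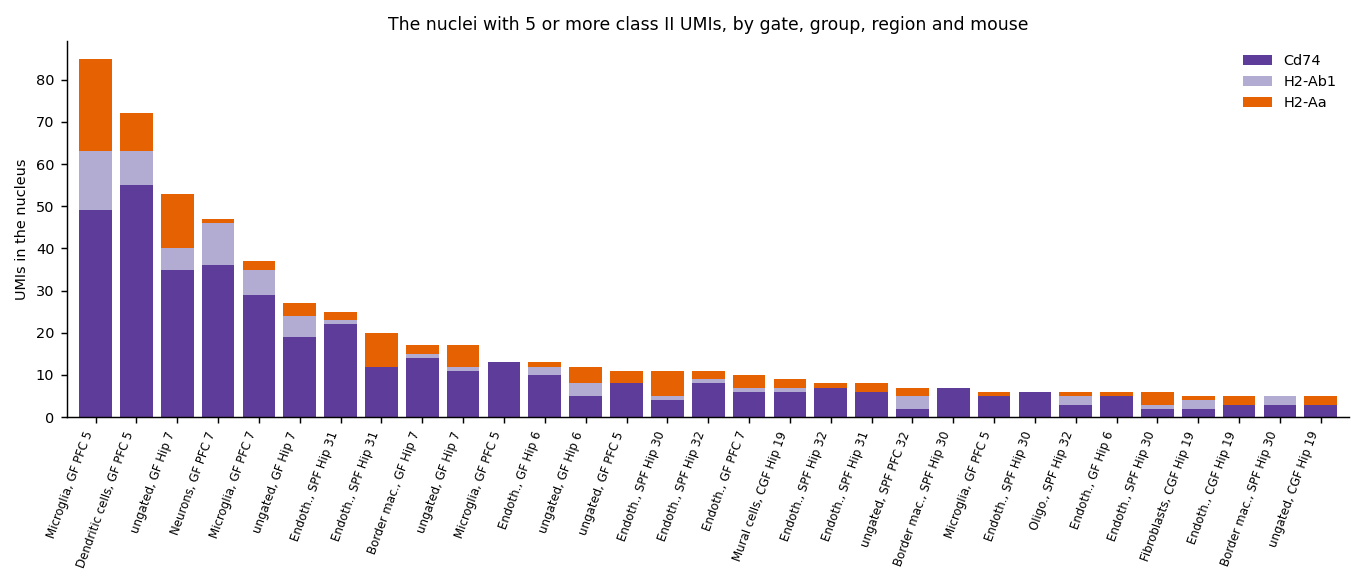
UMIs of Cd74, H2-Ab1 and H2-Aa, stacked, in each of the 31 nuclei with 5 or more of them, labelled by cell type, group, region and mouse. The highest bar is a microglial nucleus of a GF mouse in PFC with 85 UMIs, followed by a nucleus of the dendritic cell list with 72.

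The nucleus with the second highest count, 72 UMIs in GF mouse 5 of PFC, was the only one of the 31 gated by the dendritic cell list, and the microglial nucleus above it held 13 UMIs of the microglial list and 5 of the dendritic cell list. A neuronal nucleus of GF mouse 7 in PFC held 47 class II UMIs together with 4 of the border macrophage list. Another 7 nuclei with 132 UMIs lay in no gate, and 1 each in the oligodendrocyte, mural and fibroblast gates. B2m was at 1 to 6 UMIs in the microglial, border macrophage and dendritic nuclei among the 31, and reached 65 in an endothelial nucleus. Doublets were not called, and their part in nuclei with markers of more than 1 type was not tested.

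Between the regions, B2m and Nlrc5 were the members called in neurons of SPF and of CGF mice. B2m was lower in Hip than in PFC neurons in SPF mice by -0.75 (edgeR adjusted p = 0.00576, 67.3% of genes called) and in CGF mice by -1.03 (0.000623, 67%), and without SPF mouse 31 the first was -0.42 (0.164). Nlrc5 was lower in Hip by -1.76 in SPF mice (1.27e-05) and -1.64 in CGF mice (2.26e-05). In GF mice, whose PFC libraries were deeper than those of Hip (59126586 to 71463928 UMIs against 49067853 to 56240654), B2m and Nlrc5 were not called by edgeR and Tap2 was higher in Hip by 1.04 (0.00788, 25.7% of genes called), with 2.58, 3.79 and 2.76 CPM in Hip. The call of Tap2 was lost after thinning (0.60, 0.288) and without GF mouse 6 (0.86, 0.114) or GF mouse 7 (0.0558).

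The difference of the GF to SPF contrast between Hip and PFC was called in neurons for Nlrc5 (1.86 ± 0.39, edgeR adjusted p = 0.000577) and Tap2 (1.24 ± 0.40, 0.0144), beside 52.3% of all genes. In microglia, H2-K1 was lower in Hip than in PFC of CGF mice by -2.76 (0.033, 14% of genes called), which was -1.30 (0.66) without CGF mouse 17 and was lost without CGF mouse 19 (0.116) and with the stricter gate (0.169). In astrocytes, Nlrc5 was lower in Hip of SPF mice by -1.80 (0.0337, 38.1% of genes called), and 5 of 12 alternatives did not pass the threshold. No member was called between the regions in endothelium by edgeR, where 0.124% of 8096 genes were called in GF mice, 12.1% in SPF mice and 13.9% in CGF mice. With the mouse as a block, as both regions came from the same animal, H2-D1 in SPF mice (0.75, edgeR adjusted p = 0.0425) and Tap1 in CGF mice (-2.39, 0.0322) were called in endothelium, and Cd74 in microglia of GF mice (-2.87, 9.19e-05), where 78 of the 105 Cd74 UMIs of PFC lay in 2 nuclei and GF mouse 6 had 2.03 CPM. Tap1 held only 5 UMIs in Hip and 13 in PFC endothelium of CGF mice. The calls under the block lack the share of all genes called in that fit and support nothing.

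Over the 117 sums of a type in a library and 12832 genes with a mean of at least 5 CPM, the genes most like B2m by Pearson's r of log2(CPM + 1) were Clic1 (0.872), Il10rb (0.867), Ucp2 (0.866), Slc40a1 (0.864) and H2-D1 (0.849). For Cd74 they were Cyba (0.604), Gm27201 (0.588), Lyz2 (0.575), Gm26522 (0.573) and Clic1 (0.569). These sums share libraries and cell types and differ in depth, so that r describes the pattern across types and carries no test.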

How the data were processed

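Nuclei of frozen Hip and PFC were sequenced with 10x Genomics 3' reagents. Per the labels and the file headers, the authors used CASAVA 1.8 and Cell Ranger (3.1.0 in the matrix headers) with mm10, and deposited raw UMI counts per gene and nucleus without normalization. The labels gave each library its group and region. The 10 members, the 16 marker lists (134 markers) and the pathway lists (47 genes, 45 of them in the files) were chosen with earlier results of these data known.

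A nucleus joined the type with the highest mean log level of its marker list (counts scaled to 10000 per nucleus) if at least 3 distinct markers were present and the best list of another lineage stayed under 0.7 of that level. Microglia were also held to this limit against the border macrophage list, while border macrophages were not held to it against the microglial list. Of the endothelial nuclei, 11 in Hip and 78 in PFC had exactly 3 markers. UMIs were summed per library and type, and sums of under 10 nuclei were left out of the fits. Groups (9 mice of a region), regions (18 libraries) and types (library as a term) were tested with edgeR 4.0.16 (filterByExpr, TMM, glmQLFit, glmQLFTest) in R 4.3.3, with Benjamini-Hochberg adjustment over all genes tested and a threshold of 0.05. The SE is the absolute log2 difference divided by the square root of F. A type was fitted by group only where each group kept 2 or more mice, which left out border macrophages, so that 6 types were fitted.

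Alternatives were DESeq2 1.42.0, no low-count filter, no TMM, and sums thinned to the smallest sum of that type. Others were a stricter gate (4 markers), a looser one (2), only the 6 mice of a contrast and only SPF mice (types). Excitatory neurons only, each mouse left out and the mouse as a block were also run. The smallest sum was taken within a region for groups and over both regions for the comparison of regions. Nuclei were thinned to 500 UMIs only for the shares of nuclei with a UMI. A cap of 1000 UMIs per nucleus was added after seeing the data. Deviations of the 2 regions of a mouse from their group means correlated by 0.0631 to 0.418 in neurons, -0.121 to 0.292 in endothelium and -0.071 to 0.253 in microglia. Python 3.11.15, pandas 2.3.3, NumPy 2.4.6, SciPy 1.17.1 and matplotlib 3.10.9 were used. The scripts were tested on simulated data. All genes are named under 1 rule: every member, and a listed pathway gene only where called between groups in microglia or endothelium. The list of transcription factors is not reported here. Doublets were not called. The precision of a level is set by the UMIs of its type, 198488 to 857063 per library for endothelium of Hip and 142268 to 685052 in PFC.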

Additional observations from a re-analysis of the deposited data

Results flagged for a closer look

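In neurons the difference of the GF to SPF contrast between Hip and PFC passed the threshold for Nlrc5, with 1.86 on the log2 scale, and for Tap2, with 1.24. For Nlrc5 the contrast is near 0 in Hip and far below 0 in PFC, where the SPF libraries belong to the 6 with low depth. The difference of Tap2 was lost after thinning (0.56, edgeR adjusted p = 0.401) and without GF mouse 6 (0.0685) or SPF mouse 31 (0.0851).

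Outside the 7 gated types, 698 UMIs of Cd74, H2-Aa and H2-Ab1 were found in 428 of 54207 nuclei. They enter no test above, and 218 of these UMIs lay in nuclei described above for holding 5 or more.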

How the results depend on the processing

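Of 31 single differences of members that passed the threshold, 12 did so under every alternative run, and over 489 alternatives 404 passed in the same direction, 85 kept the direction without passing and 0 reversed. Alternatives in which the gene did not pass the low-count filter were not counted. Among the 12, only H2-K1 (GF and SPF mice) and H2-D1 (GF and CGF mice) in Hip neurons leave out the PFC libraries of SPF and CGF mice. The others cannot be told apart from that set of libraries, and no alternative separates them. The number of member tests called in Hip between GF and SPF mice was 5, with 9 without the low-count filter, 2 with nuclei capped at 1000 UMIs and 3 to 8 when a mouse was left out. Between CGF and SPF mice of Hip it was 1, with 2 by DESeq2, 9 without the filter, 0 with only the 6 mice, with the stricter or looser gate and with the cap, and 0 to 1 without a mouse. Between GF and CGF mice of Hip it was 7, with 3 after thinning, 2 with the cap and 2 to 9 without a mouse. In PFC, 6 of 13 were called between GF and SPF mice (46.2%, beside 46.7% over all genes), with 11 without the filter, 3 after thinning, 3 with the cap and 5 to 9 without a mouse. There, 0 were called between CGF and SPF mice by edgeR (1 by DESeq2, 3 without the filter, 0 to 1 without a mouse) and 3 of 13 between GF and CGF mice (beside 46% over all genes; 11 without the filter, 5 with only the 6 mice, 3 to 5 without a mouse). Between regions, GF mice had 1, with 2 under the replicate block, 3 without the filter, 0 after thinning and 0 to 2 without a mouse, SPF mice 3, with 5 without the filter and 2 to 3 without a mouse, and CGF mice 3, with 2 to 5. The pairing of regions by mouse changed no other count of calls by over 1.5 times. Of the differences between types, 43 were called for endothelium and 41 for microglia in Hip, with 42 to 44 and 35 to 41 without a mouse, and 36 and 41 in PFC, with 32 to 37 and 34 to 42 without a mouse, and 18 for microglia with only SPF mice. The shares of endothelial nuclei with B2m were 30.4%, 52.6% and 46.3% in GF, SPF and CGF mice of Hip without thinning and 30.7%, 27.6% and 20.1% in PFC. The cause of these shifts was not tested. The class II genes, Tap1 and Nlrc5 were sparse in endothelium, and the PFC libraries of SPF and CGF mice held fewer UMIs than the other libraries. About 60% of nuclei could be gated.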

Other observations

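Ciita, the transactivator of class II genes, was looked at after its values were seen. In neurons it had 4.24 to 8.11 CPM in Hip and 6.22 to 7.64 CPM in PFC of GF mice, and 0.203 to 0.454 CPM in the 6 PFC libraries of SPF and CGF mice. It overlaps Dexi, which lies on the other strand. The neuronal Nlrc5 of these 6 libraries was above that of the other 12, the opposite direction.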
